A study of Mus musculus with 8 samples.

Results

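The vascular barrier genes described here are 10 genes of endothelial permeability control, taken by symbol from the Ensembl gene identifiers of the lung count files: the ligands *Angpt1*, *Angpt2* and *Vegfa*, the receptors *Tek*, *Tie1*, *Kdr*, *Flt1* and *S1pr1*, and the junction genes *Cdh5* and *Cldn5*. The symbols matched 10 of the 55416 gene identifiers, each of them once. All 10 passed the filter on low counts, and the lowest count of any of them in any library was 173.

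The endothelial lining of lung capillaries keeps plasma inside the vessel by adherens and tight junctions between neighbouring cells. Angiopoietin-1, made by pericytes and other mesenchymal cells, activates the receptor Tek (Tie2) and tightens these junctions, while angiopoietin-2, released by endothelial cells, competes with it in inflammation, and Tie1 is the orphan partner receptor that modulates Tek. VEGF-A acts through Kdr to loosen junctions and to keep lung capillaries alive, and sphingosine-1-phosphate acts through S1pr1 to strengthen the barrier.

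Lung tissues of female mice, C57BL/6 by the labels and C57BL/6J by the methods, aged 6 to 8 weeks, were profiled by RNA-seq in 3 groups. The 3 control mice received the vehicle DMSO into the tail vein and saline into the peritoneum 0.5 h later. The 3 mice of the LPS group received lipopolysaccharide, a bacterial endotoxin, at 35 mg/kg, given as LPS only in the abstract, and the methods name no DMSO for them. The 2 dual-treated mice received YW3-56, an inhibitor of protein arginine deiminases, at 10 mg/kg in DMSO 0.5 h before the same LPS dose. Lungs were taken about 24 h after LPS, from 1 side only. The methods give 3 sequenced mice for each group, while the labels hold 2 dual-treated mice, as does the description of the sequenced groups, and both are included here. The mice are numbered 1, 2 and 4 in control, 1, 6 and 7 in LPS and 2 and 5 in the dual treatment, and values are given in this order.

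Total counts per library ran from 19061949 to 20908608, and levels are CPM, counts scaled to a fixed library total, after TMM normalization, edgeR's scaling for library composition. LPS mice 6 and 7 stood apart from the other 6 libraries in transcripts of squamous epithelium and skeletal muscle. The summed level of the 7 squamous genes found, of 8 listed, was 11.4, 14.8 and 15.3 CPM in control, 1.54, 388 and 1099.8 CPM in LPS and 10.8 and 25.0 CPM in dual-treated lungs. *Krt13*, the most abundant of them in LPS mice 6 and 7, was at 0.297, 286 and 887 CPM in the LPS lungs and at most 0.878 CPM elsewhere, where *Krt14* had the highest mean in control and in dual-treated lungs. The sum of 6 skeletal muscle genes was 8.17, 18.0 and 12.6 CPM in control, 15.9, 363 and 995 CPM in LPS and 4.17 and 5.58 CPM in dual-treated lungs. *Acta1* was the most abundant of them in LPS mice 6 and 7, and by group mean *Ckm* was in control and *Mylpf* in dual-treated lungs. With LPS, 5 of the 7 squamous genes and 5 of the 6 muscle genes, all those tested, rose, and without LPS mice 6 and 7 edgeR, the tool run without them, called 0 of either list up. In the fit without both mice, the squamous genes *Krt5*, *Krt14* and *Sprr1a* had log2FC of -3.64, -4.89 and -2.98, with LPS mouse 1 below control. Without LPS mouse 6 alone or LPS mouse 7 alone, 2 squamous genes rose. Genes without a count numbered 3, 2 and 2 squamous and 2, 1 and 2 muscle genes in control mice 1, 2 and 4, 1 of each list in LPS mouse 1, 0 in LPS mice 6 and 7, 2 squamous and 0 muscle genes in dual-treated mouse 2, and 1 of each list in dual-treated mouse 5. The part of these transcripts in the results was not tested, and results are therefore also given without LPS mice 6 and 7, which leaves LPS mouse 1 alone in its group and assumes that it varies like the other groups.

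A gene was called upregulated or downregulated, a DEG, when its fold change was over 2 and its Benjamini-Hochberg adjusted p-value, from edgeR's quasi-likelihood test over 18560 genes, was under 0.05. The mice are separate animals, and the test sets each difference against the spread between mice of the same group among these 8. The comparison of LPS with control and that of the dual treatment with control share the control mice, and each of them shares mice with the comparison of the dual treatment with LPS.

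By the GENCODE annotation of GRCm39, the ligand genes are *Angpt1* (ENSMUSG00000022309, chr15:42288058-42540417, minus strand), *Angpt2* (ENSMUSG00000031465, chr8:18739202-18791603, minus strand) and *Vegfa* (ENSMUSG00000023951, chr17:46327919-46343309, minus strand). The receptor genes are *Tek* (ENSMUSG00000006386, chr4:94627291-94763224, plus strand), *Tie1* (ENSMUSG00000033191, chr4:118328385-118347261, minus strand), *Kdr* (ENSMUSG00000062960, chr5:76093487-76139884, minus strand), *Flt1* (ENSMUSG00000029648, chr5:147498414-147662826, minus strand) and *S1pr1* (ENSMUSG00000045092, chr3:115504071-115508721, minus strand). The junction genes are *Cdh5* (ENSMUSG00000031871, chr8:104828231-104871143, plus strand) and *Cldn5* (ENSMUSG00000041378, chr16:18595597-18597012, plus strand). All 10 are protein-coding. Exons of *Angpt2* overlap those of *Mcph1*, a protein-coding gene on the opposite strand, and exons of *Angpt1*, *Tie1*, *Vegfa*, *S1pr1* and *Cdh5* overlap lncRNA genes on the opposite strand. The strand setting of the counting is not given in the sources used here, so reads of such pairs cannot be told apart and these 6 values are uncertain. *Mcph1* itself was at 3.91, 2.91 and 5.196 CPM in control, 5.75, 5.14 and 5.30 CPM in LPS and 6.04 and 4.87 CPM in dual-treated lungs. Counts per gene do not separate the soluble form of *Flt1* from the membrane receptor, nor the splice forms of *Vegfa*.

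Divided by exon length, the levels of the 10 genes can be ranked within control lungs. The order in CPM per kilobase (mean ± SD, n = 3) was *Cldn5* at 436 ± 26.1, *Vegfa* at 194 ± 12.2, *Cdh5* at 151 ± 16.8, *Tie1* at 71.8 ± 7.12, *S1pr1* at 64.4 ± 1.54 and *Tek* at 58.0 ± 6.72. *Kdr* at 37.9 ± 1.79, *Flt1* at 18.8 ± 0.578, *Angpt2* at 9.60 ± 1.02 and *Angpt1* at 8.10 ± 1.10 CPM per kilobase completed it. Neighbours in this order did not overlap between mice, except *Tie1* with *S1pr1* and *Angpt2* with *Angpt1*. In LPS lungs the order differed on the same scale: *Cldn5* led at 429 ± 22.05, followed by *Cdh5* at 170.2 ± 38.1 and *S1pr1* at 135 ± 15.2, and *Vegfa* came next at 76.1 ± 12.7. *Angpt2*, at 15.4 ± 0.787 CPM per kilobase, then lay above *Tie1*, at 9.14 ± 0.648, *Kdr*, at 6.24 ± 0.661, and *Tek*, at 5.99 ± 1.35. *Flt1*, at 14.4 ± 1.55, overlapped with *Angpt2*, as did *Cdh5* with *S1pr1* and *Kdr* with *Tek*, and *Angpt1* was lowest at 1.53 ± 0.279. The order in dual-treated lungs (n = 2) was *Cldn5* at 452 ± 58.1, *Vegfa* at 126 ± 44.1, *Cdh5* at 126 ± 12.9, *S1pr1* at 78.3 ± 33.9, *Tie1* at 64.5 ± 22.8, *Tek* at 36.9 ± 13.5, *Kdr* at 20.2 ± 3.21, *Flt1* at 14.9 ± 5.21, *Angpt2* at 4.98 ± 0.301 and *Angpt1* at 4.51 ± 1.44 CPM per kilobase, with overlap of *Vegfa* with *Cdh5*, *S1pr1* with *Tie1*, *Kdr* with *Flt1* and *Angpt2* with *Angpt1*.

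With LPS, the angiopoietin receptors *Tek* and *Tie1*, the VEGF receptor *Kdr* and the ligands *Angpt1* and *Vegfa* were downregulated, and the sphingosine-1-phosphate receptor *S1pr1* was upregulated. These are 5 downregulated genes of 10, against 21.3% of all genes tested, and 1 upregulated gene, against 17.9%. *Angpt2*, *Flt1*, *Cdh5* and *Cldn5* were not called. The median log2FC of the 10 genes was -0.86, against -0.010 over all genes. In bulk lung, fewer endothelial cells and less RNA per endothelial cell cannot be told apart. Without LPS mice 6 and 7, *Angpt1*, *Vegfa*, *Tek*, *Tie1* and *Kdr* fell, 5 of 10 against 19.7% of all genes, and *S1pr1* rose, 1 of 10 against 15.9%.

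Against control, the dual-treated lungs had no called gene among the 10 with edgeR's test, where 1.90% of all genes were called down and 5.25% up. DESeq2 called 0 of the 10 as well, and 5 had an unadjusted p-value under 0.05 with a negative log2FC, against 14.7% of all genes. Between dual-treated and LPS lungs, *Tek*, *Tie1*, *Kdr* and *Angpt1* were upregulated in the dual treatment, 4 of 10 against 19.8% of all genes, and *Angpt2* was downregulated, 1 of 10 against 14.0%. Without LPS mice 6 and 7 these 5 genes were called as before, with log2FC of 2.59, 2.70, 1.82, 1.28 and -1.70 in this order, where 18.1% of all genes were called up and 12.3% down. The medians of the 10 genes were -0.48 against control and 0.40 against LPS, beside 0.0042 and 0.060 over all genes.

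**Figure D1:**
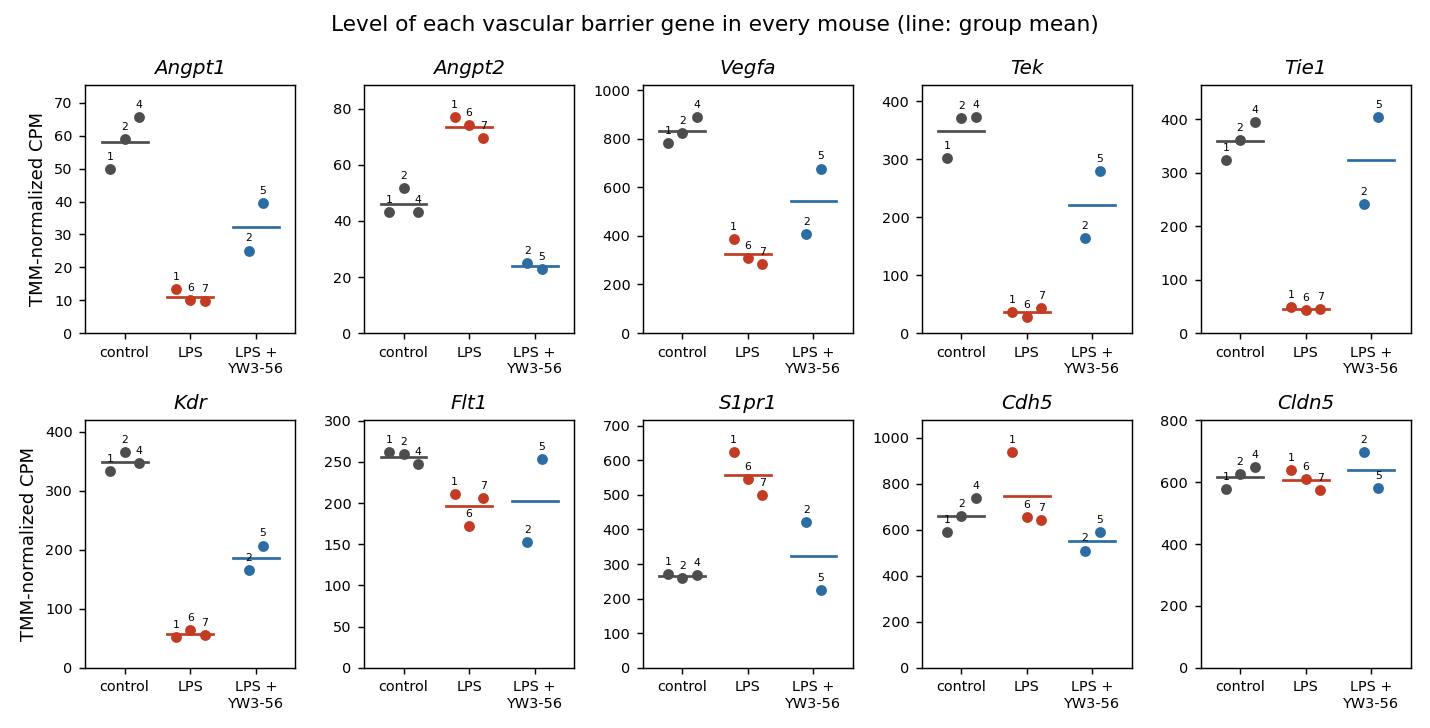
Level of each of the 10 genes in every mouse, in TMM-normalized CPM on axes that start at 0, with the mouse number beside each point and a line at the group mean. *Tek*, *Tie1* and *Kdr* are low in the 3 LPS mice, while *Cdh5* and *Cldn5* overlap between control and LPS mice.

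Among the ligands, *Angpt1*, the agonist of Tek, was at 49.9, 59.1 and 65.6 CPM in control, 13.3, 9.99 and 9.66 CPM in LPS and 25.1 and 39.7 CPM in dual-treated lungs. It was low in each LPS mouse and lay between the other groups in both dual-treated mice, with no overlap between any groups. *Angpt1* fell with LPS, with a log2FC of -2.41 ± 0.20 (SE, adjusted p = 7.42e-06), or -2.13 without LPS mice 6 and 7. For the dual treatment its log2FC was -0.85 ± 0.21 (SE, adjusted p = 0.0268) against control and 1.56 ± 0.22 (SE, adjusted p = 0.000241) against LPS. Against control it passed the adjusted p but not the fold criterion, and without control mouse 2 or 4 or dual-treated mouse 2 the adjusted p was 0.0764, 0.0761 and 0.146.

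*Angpt2*, the ligand stored in endothelial granules that opposes angiopoietin-1 at Tek, was at 43.2, 51.7 and 43.2 CPM in control, 77.0, 74.3 and 69.6 CPM in LPS and 24.9 and 22.8 CPM in dual-treated lungs. Its order was LPS above control above dual treatment, with no overlap. The log2FC with LPS was 0.68 ± 0.10 (SE, adjusted p = 0.000260), a fold change of 1.60 that did not reach 2, and 0.75 without LPS mice 6 and 7. With scaling by library size only it was 0.39. The dual treatment gave -0.95 ± 0.12 (SE, adjusted p = 0.000869) against control, short of the fold criterion, and *Angpt2* fell against LPS, with -1.63 ± 0.12 (SE, adjusted p = 8.83e-06). Both dual-treated mice thus had less *Angpt2* than every control mouse, and the fold against control passed 2 when control mouse 4 (-1.02) or dual-treated mouse 2 (-1.04) was left out.

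The *Angpt2* to *Angpt1* ratio combines the opposed ligands of Tek within each library and does not depend on scaling. In CPM per kilobase it was 1.296, 1.311 and 0.988 in control, 8.69, 11.1 and 10.8 in LPS and 1.49 and 0.862 in dual-treated lungs. LPS lungs thus held several times as much *Angpt2* as *Angpt1* transcript per length, and the other groups similar amounts of each. The log2 ratio was higher by 3.09 in LPS than in control, or 8.54-fold, with p = 0.1 in an exact two-sided permutation test, the smallest p that 3 mice against 3 can give. It was lower in the dual treatment than in LPS by a difference of -3.16, with exact permutation p = 0.1, the smallest that 2 against 3 can give. Between dual treatment and control the difference was -0.070 (exact permutation p = 0.9), and the dual-treated mice lay on either side of the control mean. Without dual-treated mouse 5 the last difference was 0.32, and without control mouse 2 it was 0.00053.

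*Vegfa*, the VEGF ligand of Kdr and Flt1, which alveolar epithelium makes in abundance, was at 785, 824 and 889 CPM in control, 389, 309.7 and 284 CPM in LPS and 409 and 678 CPM in dual-treated lungs. LPS lungs were below all others, and dual-treated mouse 2 was close to LPS mouse 1. *Vegfa* fell with LPS, with a log2FC of -1.35 ± 0.19 (SE, adjusted p = 0.000201), or -1.09 without LPS mice 6 and 7. The log2FC was -0.61 ± 0.22 (SE, adjusted p = 0.0835) between dual treatment and control and 0.73 ± 0.21 (SE, adjusted p = 0.0136) between dual treatment and LPS, neither of them called. The last became a call without dual-treated mouse 2, with 1.03, and with scaling by library size only, with 1.06. It was 0.30 without dual-treated mouse 5 and 0.48 without LPS mice 6 and 7, and the log2FC against control was -0.33 without dual-treated mouse 2.

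Among the receptors, *Tek*, which encodes the angiopoietin receptor Tie2, was at 302, 371 and 372 CPM in control, 36.6, 27.5 and 43.7 CPM in LPS and 164 and 279 CPM in dual-treated lungs. LPS lungs held the lowest levels by far, and both dual-treated mice were below every control mouse and above every LPS mouse. *Tek* fell with LPS, with a log2FC of -3.28 ± 0.24 (SE, adjusted p = 3.20e-06), or -3.24 without LPS mice 6 and 7. It rose in the dual treatment against LPS, with 2.62 ± 0.24 (SE, adjusted p = 2.62e-05), and was at -0.65 ± 0.24 (SE, adjusted p = 0.1004) against control, or -0.35 without dual-treated mouse 2. The adjusted p against control was 0.0298 with DESeq2 and 0.0113 with no filter on low counts.

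*Tie1*, the partner receptor of Tek, was at 323, 360.3 and 394 CPM in control, 49.4, 43.1 and 44.7 CPM in LPS and 242 and 403 CPM in dual-treated lungs. The LPS lungs were far below the rest, and the dual-treated mice spanned the control range, with mouse 2 below it and mouse 5 above it. *Tie1* fell with LPS, with a log2FC of -2.97 ± 0.19 (SE, adjusted p = 1.77e-06), or -2.86 without LPS mice 6 and 7. It rose in the dual treatment against LPS, with 2.82 ± 0.20 (SE, adjusted p = 7.64e-06). Against control the log2FC was -0.15 ± 0.19 (SE, adjusted p = 0.644), and 0.14 without dual-treated mouse 2 or -0.60 without mouse 5.

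*Kdr*, VEGF receptor 2 and the main signalling receptor for VEGF-A in endothelium, was at 332, 365 and 347 CPM in control, 52.4, 64.2 and 55.5 CPM in LPS and 165 and 207 CPM in dual-treated lungs. The groups did not overlap, in the order control, dual treatment, LPS. *Kdr* fell with LPS, with a log2FC of -2.60 ± 0.13 (SE, adjusted p = 6.16e-07), or -2.73 without LPS mice 6 and 7. It rose against LPS in the dual treatment, with 1.70 ± 0.13 (SE, adjusted p = 1.14e-05), and its log2FC against control was -0.90 ± 0.14 (SE, adjusted p = 0.00252), past the adjusted p but not the fold criterion.

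*Flt1*, VEGF receptor 1, which binds VEGF-A tightly and signals weakly, was at 262, 259 and 247 CPM in control, 210.5, 172 and 207 CPM in LPS and 153 and 253 CPM in dual-treated lungs. The 3 LPS mice were below the 3 control mice, while the dual-treated mice were the lowest and among the higher ones of all 8. The log2FC of *Flt1* was -0.38 ± 0.17 (SE, adjusted p = 0.0729) with LPS, -0.34 ± 0.19 (SE, adjusted p = 0.278) in the dual treatment against control and 0.047 ± 0.19 (SE, adjusted p = 0.843) against LPS. With library size only the log2FC with LPS was -0.67 (adjusted p = 0.00523). Its adjusted p was also under 0.05 in a fit of the 2 compared groups only (0.00587), without dual-treated mouse 2 (0.00669) or 5 (0.00648) and with no filter on low counts (0.0182), each time short of the fold criterion. The value against control was -0.046 without dual-treated mouse 2 and -0.78 without mouse 5, and that against LPS was 0.34 without mouse 2 and 0.37 with library size only. That against LPS turned negative without dual-treated mouse 5 (-0.39), without LPS mouse 6 (-0.047), without LPS mice 6 and 7 (-0.059), with RLE scaling (-0.0083) and with DESeq2 (-0.0083). None of the 3 was called, in contrast to *Kdr* with LPS, and the difference between the 2 receptors was not tested.

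*S1pr1*, the sphingosine-1-phosphate receptor that strengthens endothelial junctions, was at 271, 259 and 269 CPM in control, 624, 546 and 499 CPM in LPS and 423 and 225 CPM in dual-treated lungs. LPS lungs were above all others, dual-treated mouse 2 was in between, and dual-treated mouse 5 was below every control mouse. *S1pr1* rose with LPS, with a log2FC of 1.06 ± 0.20 (SE, adjusted p = 0.00124), or 1.23 without LPS mice 6 and 7. This call was lost without LPS mouse 1 (0.98). It was also lost with scaling by library size only (0.77), which moved the median of all genes to -0.29 with LPS, and to 0.044 and 0.38 in the dual treatment against control and against LPS. That scaling moved the share of upregulated genes among all calls from 45.6% to 32.5% with LPS, and from 58.5% to 74.7% between dual treatment and LPS. The log2FC of *S1pr1* in the dual treatment was 0.28 ± 0.22 (SE, adjusted p = 0.441) against control, or -0.28 without dual-treated mouse 2, and -0.78 ± 0.23 (SE, adjusted p = 0.0155) against LPS. The last was a call, with -1.33, without dual-treated mouse 2. Without mouse 5 the 2 values were 0.64 and -0.42, and with library size only that against LPS was -0.45.

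Of the junction genes, *Cdh5*, which encodes VE-cadherin, the adhesion molecule of endothelial adherens junctions, was at 589.9, 659 and 737 CPM in control, 938, 657 and 642 CPM in LPS and 510.0 and 590.2 CPM in dual-treated lungs. LPS mouse 1 was the highest of all, and the other LPS mice lay within the control range. The log2FC of *Cdh5* was 0.17 ± 0.17 (SE, adjusted p = 0.382) with LPS, and it turned to -0.13 with library size only and to -0.021 without LPS mouse 1. Without LPS mice 6 and 7 it was 0.51 (adjusted p = 0.0276). With the dual treatment it was -0.27 ± 0.19 (SE, adjusted p = 0.375) against control and -0.44 ± 0.19 (SE, adjusted p = 0.0691) against LPS. The former was -0.41 without dual-treated mouse 5. The latter was -0.10 with library size only, -0.25 without LPS mouse 1 and -0.78 (adjusted p = 0.00725) without LPS mice 6 and 7. Its adjusted p was also under 0.05 with RLE (0.0445), DESeq2 (0.0158) and no filter on low counts (0.0494), and without LPS mouse 7 (0.0336). No alternative made *Cdh5* a call in any comparison.

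*Cldn5*, which encodes the claudin of endothelial tight junctions, was at 577, 626 and 649 CPM in control, 638, 610.0 and 576 CPM in LPS and 698 and 581 CPM in dual-treated lungs. The 3 groups overlapped. Its log2FC was -0.022 ± 0.11 (SE, adjusted p = 0.873) with LPS, 0.051 ± 0.13 (SE, adjusted p = 0.831) in the dual treatment against control and 0.073 ± 0.13 (SE, adjusted p = 0.636) against LPS. The first turned positive without control mouse 4 (0.015), without LPS mouse 7 (0.026), without LPS mice 6 and 7 (0.053), with RLE scaling (0.015) and with DESeq2 (0.015). With library size only the log2FC was -0.31 (adjusted p = 0.0249) with LPS and 0.40 (adjusted p = 0.0136) in the dual treatment against LPS, both past the adjusted p but not the fold criterion. The log2FC in the dual treatment turned negative without dual-treated mouse 2, at -0.12 and -0.089, and that against LPS also without LPS mice 6 and 7 (-0.0034). *Cldn5* was not called in any comparison under any alternative.

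**Figure D2:**
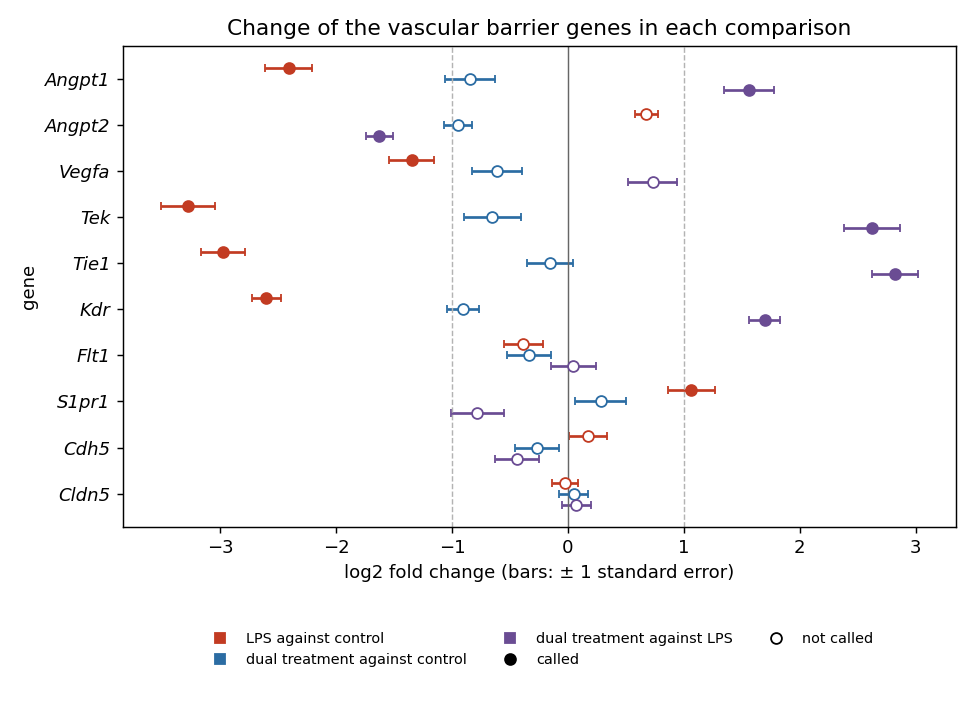
Log2FC of the 10 genes (horizontal axis, bars of 1 SE) in the 3 comparisons, with filled points for called genes and dashed lines at a fold change of 2. With LPS against control, *Tek* lies lowest at -3.28 and *S1pr1* highest at 1.06.

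The 2 mice of the dual treatment were unlike each other. Mouse 5 was nearer to the control mean than mouse 2 for *Angpt1*, *Tek*, *Tie1*, *Vegfa*, *Kdr*, *Flt1*, *S1pr1*, *Cdh5* and *Cldn5*, and mouse 2 was nearer for *Angpt2*. Without dual-treated mouse 5, 4 genes were called down against control: *Angpt1* (-1.24), *Tek* (-1.11), *Vegfa* (-1.05) and *Kdr* (-1.10), 4 of 10 against 3.62% of all genes in that setting. With mouse 5 as the only dual-treated mouse, *Angpt2* was called down, 1 of 10 against 0.798% of all genes. Without control mouse 4 *Angpt2* was called down too, against 1.39% of all genes, so the count of 0 depends on which mice are included.

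Markers of the cells that carry these genes moved with LPS as well. Of 15 pan-endothelial markers, 11 fell with LPS and 4 were not called, with a median log2FC of -1.84. Their summed level was 4666, 5132 and 5348 CPM in control, 1912, 1499 and 1617 CPM in LPS and 4583 and 4488 CPM in dual-treated lungs, and none of the 15 was without counts in any library. The most abundant was *Egfl7* in control, *Eng* in LPS and *Pecam1* in dual-treated lungs. *Sox18*, an endothelial transcription factor with the largest fall of the 15, was at 333, 353 and 411 CPM in control, 1.96, 2.02 and 1.62 CPM in LPS and 145 and 157 CPM in dual-treated lungs. The 4 that were not called, *Emcn*, *Esam*, *Robo4* and *Ecscr*, had log2FC of -0.75, -0.22, 0.98 and -0.32. Without LPS mice 6 and 7, 10 of the 15 fell and 1 rose, the latter *Robo4*, which also rose when control mouse 1, LPS mouse 6 or LPS mouse 7 alone was left out, with RLE scaling and with DESeq2. In the dual treatment 1 of the 15 fell against control (2 without dual-treated mouse 5), and 11 rose and 1 fell against LPS.

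Set against these markers within each library, the 10 genes parted. The mean log2 CPM of the 15 markers was 7.57, 7.64 and 7.72 in control, 5.82, 5.68 and 5.67 in LPS and 7.42 and 7.497 in dual-treated lungs. *Cdh5* lay above this mean by 1.64, 1.72 and 1.80 in control, 4.05, 3.68 and 3.66 in LPS and 1.57 and 1.71 in dual-treated lungs. *Tek* lay at 0.67, 0.89 and 0.82 relative to it in control, -0.62, -0.89 and -0.22 in LPS and -0.058 and 0.63 in dual-treated lungs. On this log2 scale the difference between LPS and control was 2.98 for *S1pr1*, 2.601 for *Angpt2*, 2.08 for *Cdh5*, 1.90 for *Cldn5* and 1.53 for *Flt1*. It was -0.68 for *Kdr*, -1.05 for *Tie1* and -1.37 for *Tek*. *Vegfa* and *Angpt1*, made by other cells, had 0.56 and -0.48. *Cdh5* and *Cldn5* thus lay higher relative to the mean of the markers in LPS lungs than in control lungs, and *Tek*, *Tie1* and *Kdr* lay lower. Within the list, 11 markers were called down with LPS. The 4 not called, with log2FC from -0.75 to 0.98, also lay higher relative to that mean. Such a shift is thus not particular to *Cdh5* and *Cldn5*, and its size depends on the markers chosen. Between dual-treated and control lungs the difference was -0.73 for *Kdr*, -0.51 for *Tek*, -0.0095 for *Tie1*, -0.19 for *Flt1*, 0.40 for *S1pr1*, -0.078 for *Cdh5* and 0.23 for *Cldn5*. For the ligands it was -0.75 for *Angpt2*, -0.69 for *Angpt1* and -0.47 for *Vegfa*. *Kdr* was thus about as low relative to the mean of the markers in dual-treated as in LPS lungs, and *Angpt2* was lower than in control in place of higher. That mean includes *Sox18*, with log2FC of -7.61 with LPS and -1.28 in the dual treatment against control. *Sox18* thus lowers the mean more in LPS lungs than in dual-treated lungs, which raises each of the 10 genes relative to it in LPS lungs. The likeness for *Kdr* therefore rests in part on *Sox18*, and a mean without *Sox18* was not taken. The differences relative to the markers are descriptions without a test.

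Capillary and pericyte markers gave the following values. Of 8 markers of capillary aerocytes and general capillary cells, 6 fell with LPS and 3 fell in the dual treatment against control, and the summed level was 1329, 1472 and 1505 CPM in control, 625, 559 and 486 CPM in LPS and 1053 and 1198 CPM in dual-treated lungs. *Plvap* is counted in both the pan-endothelial and the capillary list. The highest mean was that of *Plvap* in control and dual-treated lungs and that of *Car4* in LPS lungs. Without dual-treated mouse 2 the number that fell against control was 1. Of 7 pericyte markers, 5 fell with LPS and 5 rose in the dual treatment against LPS. Between dual treatment and control 0 of the 7 were called by edgeR and 0 by DESeq2, 3 had an unadjusted p-value under 0.05, against 30.5% of all genes, and 1 was called down without dual-treated mouse 5. Their sum, led by *Pdgfrb*, was 356, 385 and 360.0 CPM in control, 165, 146 and 166 CPM in LPS and 309 and 311 CPM in dual-treated lungs. No marker of either list was without counts. Of 6 alveolar type 1 markers 2 fell with LPS. *Pdpn*, which is counted among the lymphatic endothelial markers too, had a log2FC of 0.94 and was not called. It rose without control mouse 1 (1.03) or LPS mouse 7 (1.12), and its log2FC was 1.18 without LPS mice 6 and 7. Of 6 alveolar type 2 markers 2 fell, or 4 without control mouse 2 or LPS mouse 1 or with library size only. Their sums were 4340.1, 3973 and 4129 CPM in control, 3981, 3323 and 2278 CPM in LPS and 2289 and 2840.0 CPM in dual-treated lungs for type 1, led by *Ager*, and 37136, 31015 and 38988 CPM in control, 25802, 17993 and 14469 CPM in LPS and 18721 and 29771 CPM in dual-treated lungs for type 2, led by *Sftpc*. Of 7 neutrophil markers, 6 rose with LPS and 6 in the dual treatment against control, and their sum, led by *S100a9*, was 226, 125 and 130.2 CPM in control, 2164, 3007 and 1893 CPM in LPS and 1732 and 2410.1 CPM in dual-treated lungs. The part of these cell types in the values of the 10 genes was not tested.

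The other genes of each pathway were read from lists, and the number called of those tested is given for each. Their values come from all cells of the lung, leukocytes included. In the dual treatment against control, 4 of 7 monocyte and macrophage markers and 6 of 7 neutrophil markers rose. The part of cell types in the values of the list genes was not tested. Over all genes tested, 21.3% were called down and 17.9% up with LPS, 1.90% down and 5.25% up in the dual treatment against control, and 14.0% down and 19.8% up in the dual treatment against LPS. Of 4 tested partners of the angiopoietin receptors, 1 fell and 1 rose with LPS, with a list median of 0.21, and 1 fell and 1 rose in the dual treatment against control, with a median of -0.34. *Ptprb*, the endothelial phosphatase that holds Tek and VE-cadherin phosphorylation down, was at 1099.5, 1133 and 1218 CPM in control, 268, 221 and 247 CPM in LPS and 324 and 681 CPM in dual-treated lungs. It fell with LPS, with a log2FC of -2.23 ± 0.24 (SE, adjusted p = 3.07e-05) and was the partner that also fell in the dual treatment against control, with -1.19 ± 0.26 (SE, adjusted p = 0.0152). The last call was lost without dual-treated mouse 2 (-0.79), and the value was -1.86, still a call, without mouse 5. Its rise against LPS, 1.03 ± 0.25 (SE, adjusted p = 0.00608), was lost without dual-treated mouse 5 (0.38), without LPS mouse 6 (0.96), without LPS mice 6 and 7 (0.90), with RLE scaling (0.98) and with DESeq2 (0.98). *Foxo1*, the transcription factor that Tek signalling restrains and that drives *Angpt2*, was at 44.5, 44.4 and 42.8 CPM in control, 102, 87.1 and 97.3 CPM in LPS and 37.7 and 34.0 CPM in dual-treated lungs. *Foxo1* was high in the LPS mice alone, rose with LPS, with a log2FC of 1.12 ± 0.092 (SE, adjusted p = 6.44e-06) and fell against LPS in the dual treatment, with a log2FC of -1.41 ± 0.11 (SE, adjusted p = 9.88e-06). With library size only its log2FC with LPS was 0.83, which ended the call. *Dok2*, an adaptor that docks to activated Tek, was at 6.997, 7.18 and 8.001 CPM in control, 15.2, 17.6 and 11.3 CPM in LPS and 42.9 and 30.8 CPM in dual-treated lungs and rose in the dual treatment against control, with 2.32 ± 0.21 (SE, adjusted p = 0.000160), and against LPS, with 1.33 ± 0.20 (SE, adjusted p = 0.000432). Its log2FC with LPS, 0.99, was a call without control mouse 4 (1.05), without LPS mouse 7 (1.16), without LPS mice 6 and 7 (1.04), with RLE scaling (1.03) and with DESeq2 (1.03). *Angpt4* was below the filter in count, with at most 8 counts in any library.

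Of 7 VEGF ligands, receptors and co-receptors, 4 fell and 1 rose with LPS, with a list median of -1.58 against -0.010 over all genes. *Nrp1*, the co-receptor that presents VEGF-A to Kdr, was at 197, 209.8 and 204 CPM in control, 34.2, 29.9 and 27.9 CPM in LPS and 96.8 and 150.0 CPM in dual-treated lungs. Like *Kdr*, it was lowest in LPS and intermediate in dual-treated lungs, with a log2FC of -2.73 ± 0.16 (SE, adjusted p = 1.40e-06) with LPS and 2.01 ± 0.17 (SE, adjusted p = 1.69e-05) in the dual treatment against LPS. *Vegfd*, a ligand of the lymphatic receptor Flt4, was at 29.6, 34.1 and 28.3 CPM in control, 7.77, 8.20 and 10.3 CPM in LPS and 21.1 and 23.6 CPM in dual-treated lungs and fell with LPS, with a log2FC of -1.80 ± 0.14 (SE, adjusted p = 5.66e-06). *Vegfb*, a ligand of Flt1, was at 24.8, 24.9 and 27.6 CPM in control, 9.02, 8.26 and 7.65 CPM in LPS and 15.6 and 17.4 CPM in dual-treated lungs and fell, with a log2FC of -1.63 ± 0.12 (SE, adjusted p = 4.48e-06). These ligands were lowest in the LPS lungs, and the dual-treated lungs lay between LPS and control. *Vegfc*, the other ligand of Flt4, was at 14.8, 15.1 and 11.2 CPM in control, 4.81, 5.37 and 3.57 CPM in LPS and 18.3 and 28.1 CPM in dual-treated lungs, so that the dual-treated mice were above every control mouse. It fell with LPS, with a log2FC of -1.58 ± 0.23 (SE, adjusted p = 0.000207), rose in the dual treatment against LPS, with a log2FC of 2.34 ± 0.24 (SE, adjusted p = 5.06e-05), and had a log2FC of 0.76 ± 0.23 (SE, adjusted p = 0.0548) against control. *Pgf*, placental growth factor and a ligand of Flt1, went the other way, at 7.98, 8.92 and 5.38 CPM in control, 14.8, 15.4 and 16.0 CPM in LPS and 23.8 and 17.7 CPM in dual-treated lungs. *Pgf* rose in the dual treatment against control, with a log2FC of 1.48 ± 0.22 (SE, adjusted p = 0.00212) and with LPS, with a log2FC of 1.05 ± 0.20 (SE, adjusted p = 0.00123), the latter lost without control mouse 4 (0.87). Without dual-treated mouse 2, *Vegfc* was also called against control (1.01), and without dual-treated mouse 5 *Nrp1* was (-1.10). With library size only *Pgf* lost its call with LPS (0.77). In the dual treatment 3 of the 7 rose against LPS, joined by *Vegfb* (0.99 in the main fit) with library size only (1.32), with either other filter on low counts, without LPS mouse 1 (1.05) and without dual-treated mouse 2 (1.04). *Pgf* alone was called in the dual treatment against control, where the list median was -0.46.

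Genes that VEGF signalling induces in endothelium did not move as a block. Of 7, 3 fell and 2 rose with LPS, 3 fell in the dual treatment against control, and 2 rose and 3 fell in the dual treatment against LPS. The list medians were -0.31, -0.47 and -0.48 in these comparisons. *Dll4*, the Notch ligand of tip cells, was at 123, 114 and 131 CPM in control, 16.4, 7.10 and 14.2 CPM in LPS and 31.5 and 46.0 CPM in dual-treated lungs. It fell with LPS, with a log2FC of -3.29 ± 0.27 (SE, adjusted p = 6.78e-06) and in the dual treatment against control, with a log2FC of -1.66 ± 0.29 (SE, adjusted p = 0.00506). *Apln*, the peptide apelin of capillary aerocytes, was at 22.8, 17.6 and 15.9 CPM in control, 0.712, 1.16 and 1.17 CPM in LPS and 11.5 and 15.6 CPM in dual-treated lungs and fell with LPS, with a log2FC of -4.20 ± 0.26 (SE, adjusted p = 1.58e-06), while its log2FC against control in the dual treatment was -0.47 ± 0.23 (SE, adjusted p = 0.212). *Aplnr*, the apelin receptor of general capillary cells, was at 24.02, 23.1 and 25.1 CPM in control, 4.39, 1.33 and 1.90 CPM in LPS and 2.50 and 10.1 CPM in dual-treated lungs, and fell with LPS, with a log2FC of -3.25 ± 0.52 (SE, adjusted p = 0.000437) and in the dual treatment against control, with a log2FC of -1.93 ± 0.56 (SE, adjusted p = 0.0436). The last call was lost when any control mouse or dual-treated mouse 2 was left out, with log2FC of -1.94, -1.96 and -1.93 without control mice 1, 2 and 4 and -1.28 without dual-treated mouse 2. Without mouse 5 it was -3.30 and stayed a call. With LPS, *Aplnr* was at -3.89 without LPS mouse 1 and -2.45 without LPS mice 6 and 7, both calls. *Dll4* and *Apln* were lowest in the LPS lungs, while dual-treated mouse 2 had *Aplnr* within the LPS range. Against LPS, *Aplnr* had 1.32 ± 0.56 (SE, adjusted p = 0.0681) in the dual treatment and was not called. It became a call, and the number that rose 3, with library size only (1.66), with no filter on low counts (1.35), without LPS mouse 1 (1.95), without dual-treated mouse 2 (1.98) and by its unadjusted p-value. It was -0.034 without dual-treated mouse 5. Without LPS mice 6 and 7 it was 0.52, and 4 genes of the list fell in that comparison. *Nr4a1*, an immediate early nuclear receptor that many stimuli induce, was at 62.3, 46.8 and 51.3 CPM in control, 605, 269 and 298 CPM in LPS and 75.9 and 149 CPM in dual-treated lungs and rose with LPS, with a log2FC of 2.87 ± 0.35 (SE, adjusted p = 7.19e-05), or 3.51 without LPS mice 6 and 7. Its log2FC against control in the dual treatment was 1.07 and was not called, with adjusted p = 0.0751. It became a call without dual-treated mouse 2 (1.45), without LPS mouse 1 (1.07) and without LPS mice 6 and 7 (1.07). It was also a call with library size only (1.11), with no filter on low counts (1.07), in a fit of the 2 compared groups only (1.09) and by its unadjusted p-value. Without dual-treated mouse 5 it was 0.48, so its size depends on that mouse. *Esm1*, the secreted proteoglycan endocan, was at 46.5, 34.0 and 23.2 CPM in control, 31.8, 28.1 and 23.6 CPM in LPS and 5.94 and 4.79 CPM in dual-treated lungs. It overlapped between control and LPS lungs and fell in the dual treatment against control, with a log2FC of -2.69 ± 0.29 (SE, adjusted p = 0.000468) and against LPS, with a log2FC of -2.37 ± 0.29 (SE, adjusted p = 0.000123). *Dll4*, *Aplnr* and *Esm1* were the genes of these lists that fell in the dual treatment against control, next to *Ptprb*.

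Of the 10 tested genes of the sphingosine-1-phosphate axis besides *S1pr1*, 4 fell and 3 rose with LPS, with a list median of -0.018, and 4 rose and 3 fell in the dual treatment against LPS. With library size only, 1 rose with LPS in place of 3. Between dual treatment and control 0 were called by edgeR and 0 by DESeq2, and 1 had an unadjusted p-value under 0.05, against 30.5% of all genes. The rise of *S1pr3* with LPS (1.03) was also lost without control mouse 1 (0.98) or 4 (0.999) or LPS mouse 1 (0.63). No filter on low counts ended it too (0.99). Its fall against LPS in the dual treatment (-1.001) was lost with library size only (-0.65) and with either other filter. It was also lost without control mouse 2 (-0.999) or LPS mouse 1 (-0.61), and the value was -0.69 without dual-treated mouse 2. *Sphk1*, a kinase that makes the ligand, was at 122, 106 and 102 CPM in control, 804, 635 and 631 CPM in LPS and 127 and 98.4 CPM in dual-treated lungs. It was high in LPS lungs and near control in both dual-treated mice, with a log2FC of 2.65 ± 0.15 (SE, adjusted p = 1.12e-06) with LPS and -2.62 ± 0.18 (SE, adjusted p = 6.86e-06) in the dual treatment against LPS. *Spns2*, the transporter by which endothelial cells export the ligand, was at 59.1, 71.8 and 67.9 CPM in control, 8.60, 9.18 and 18.1 CPM in LPS and 43.8 and 45.1 CPM in dual-treated lungs and fell with LPS, with a log2FC of -2.47 ± 0.25 (SE, adjusted p = 2.30e-05). Its dual-treated values lay between those of LPS and control. Among the other receptors, *S1pr2*, which opposes the action of S1pr1, was at 55.3, 56.7 and 55.4 CPM in control, 15.6, 13.7 and 11.9 CPM in LPS and 42.1 and 57.7 CPM in dual-treated lungs and fell with LPS, with a log2FC of -2.02 ± 0.14 (SE, adjusted p = 3.02e-06). It rose in the dual treatment against LPS, with a log2FC of 1.86 ± 0.15 (SE, adjusted p = 1.46e-05). *S1pr5*, a receptor best known from natural killer cells, was at 1.37, 1.83 and 2.16 CPM in control, 0.297, 0.231 and 0.447 CPM in LPS and 1.09 and 4.87 CPM in dual-treated lungs and fell with LPS, with a log2FC of -2.43 ± 0.60 (SE, adjusted p = 0.00554). Its call was lost without LPS mice 6 and 7, with -2.56.

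Of 12 junction partners, 3 fell with LPS, and 2 rose in the dual treatment against LPS. Between dual treatment and control 0 were called by edgeR and 0 by DESeq2, while 7 had an unadjusted p-value under 0.05, against 30.5% of all genes. The list median was -0.14 with LPS and -0.38 in the dual treatment against control. *Jup*, plakoglobin, which links VE-cadherin to the cytoskeleton, was at 415, 462 and 518 CPM in control, 94.9, 110.3 and 132 CPM in LPS and 289 and 393 CPM in dual-treated lungs. *Jup* fell with LPS, with a log2FC of -2.05 ± 0.17 (SE, adjusted p = 6.19e-06) and rose in the dual treatment against LPS, with a log2FC of 1.60 ± 0.18 (SE, adjusted p = 6.91e-05). *Pecam1*, the adhesion molecule of endothelial contacts and of leukocytes, was at 618, 679 and 672 CPM in control, 254, 218 and 213 CPM in LPS and 1073 and 912 CPM in dual-treated lungs, both dual-treated mice above every control mouse. It fell with LPS, with a log2FC of -1.52 ± 0.12 (SE, adjusted p = 5.30e-06), rose against LPS in the dual treatment, with a log2FC of 2.12 ± 0.13 (SE, adjusted p = 4.67e-06) and had a log2FC of 0.60 ± 0.13 (SE, adjusted p = 0.0143) against control. *Ctnnd1*, p120-catenin, which keeps VE-cadherin at the cell surface, was at 70.5, 60.3 and 58.5 CPM in control, 32.3, 34.8 and 27.4 CPM in LPS and 48.2 and 46.1 CPM in dual-treated lungs. It fell with LPS, with a log2FC of -1.004 ± 0.12 (SE, adjusted p = 5.13e-05), at the fold threshold, and the call was lost without control mouse 1 (-0.92), without LPS mouse 7 (-0.90), without LPS mice 6 and 7 (-0.96), with RLE scaling (-0.97) and with DESeq2 (-0.97). *Pecam1* and *Esam* stand also among the pan-endothelial markers, and *Apln* and *Aplnr* stand both among the VEGF response genes and the capillary markers, so each is counted in 2 lists.

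Rap1 is a small GTPase that stabilizes VE-cadherin contacts through the CCM protein complex. Of 9 genes of this support system, 2 fell and 2 rose with LPS, near the 21.3% and 17.9% of all genes, with a list median of 0.22, and 2 rose in the dual treatment against LPS. Between dual treatment and control 0 were called by edgeR and 0 by DESeq2, and 3 had an unadjusted p-value under 0.05, against 30.5% of all genes. *Rapgef3*, the cAMP-activated exchange factor Epac1, was at 158, 144 and 138 CPM in control, 58.5, 40.7 and 60.9 CPM in LPS and 149.8 and 109.5 CPM in dual-treated lungs and fell with LPS, with a log2FC of -1.46 ± 0.17 (SE, adjusted p = 5.55e-05). *Ccm2*, a scaffold of the complex, was at 50.7, 50.4 and 48.5 CPM in control, 20.1, 18.6 and 16.4 CPM in LPS and 49.9 and 56.5 CPM in dual-treated lungs and fell, with a log2FC of -1.44 ± 0.11 (SE, adjusted p = 3.63e-06). Both were low in the LPS lungs alone. *Rap1b* itself, at 268, 236 and 233 CPM in control, 686, 636 and 558 CPM in LPS and 359 and 367 CPM in dual-treated lungs, rose with LPS, with a log2FC of 1.35 ± 0.12 (SE, adjusted p = 8.01e-06). *Rasip1*, a Rap1 effector of endothelial cells, was at 79.4, 75.7 and 81.2 CPM in control, 167, 143 and 170.0 CPM in LPS and 90.1 and 72.6 CPM in dual-treated lungs and rose, with a log2FC of 1.02 ± 0.11 (SE, adjusted p = 3.61e-05). Both were higher in the 3 LPS mice than in any other mouse. The call of *Rasip1* was lost with library size only (0.74), with no filter on low counts (0.99), without control mouse 2 (0.99), without LPS mouse 7 (0.98) and without LPS mouse 1 (0.996), and leaving out LPS mouse 1 or library size only scaling each gave 3 genes called down. Against LPS, *Rasip1* was called down in the dual treatment without control mouse 4 (-1.001), LPS mouse 6 (-1.06) or dual-treated mouse 2 (-1.16), without LPS mice 6 and 7 (-1.04), with RLE scaling (-1.03) and with DESeq2 (-1.03).

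The adrenomedullin system, in which the peptide adrenomedullin acts on endothelial Calcrl paired with Ramp2 to protect the barrier, moved at each of its 4 genes. With LPS *Calcrl* and *Ramp2* fell and *Adm* and *Ramp3* rose. In the dual treatment against LPS, *Calcrl* and *Ramp2* rose and *Adm* and *Ramp3* fell. *Calcrl* was at 719, 830.4 and 719 CPM in control, 22.2, 24.5 and 24.8 CPM in LPS and 352 and 572 CPM in dual-treated lungs, with a log2FC of -4.99 ± 0.20 (SE, adjusted p = 3.20e-07) with LPS. *Ramp2* was at 547, 515 and 527 CPM in control, 31.1, 37.8 and 36.6 CPM in LPS and 462 and 519.6 CPM in dual-treated lungs, with a log2FC of -3.91 ± 0.12 (SE, adjusted p = 1.04e-07) with LPS. *Calcrl* and *Ramp2* were far lower in each LPS mouse than in any other mouse. The ligand *Adm* was at 17.3, 18.2 and 20.0 CPM in control, 185, 83.4 and 86.1 CPM in LPS and 19.5 and 15.1 CPM in dual-treated lungs and rose with LPS, with a log2FC of 2.67 ± 0.29 (SE, adjusted p = 3.75e-05), or 3.32 without LPS mice 6 and 7. *Ramp3*, the alternative partner of Calcrl, was at 6.26, 7.04 and 7.40 CPM in control, 59.6, 90.7 and 66.4 CPM in LPS and 10.7 and 18.0 CPM in dual-treated lungs and rose, with a log2FC of 3.39 ± 0.23 (SE, adjusted p = 2.31e-06). LPS lungs thus had more ligand transcript and less of the receptor and of its barrier-protective partner, without overlap with the other groups. *Ramp3* was also called in the dual treatment against control, with 1.05 ± 0.24 (SE, adjusted p = 0.0175), a call lost when control mouse 1 (0.99), 2 (1.07) or 4 (1.08) or dual-treated mouse 5 (0.60) was left out. *Calcrl* was called in that comparison without dual-treated mouse 5 (-1.13).

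Of 7 receptors for mediators that open or close the barrier, *Ptafr*, *Procr* and *Bdkrb1* rose both with LPS and in the dual treatment against control. Between dual treatment and LPS 0 were called by edgeR and 0 by DESeq2, while 4 had an unadjusted p-value under 0.05, against 63.6% of all genes. Without LPS mouse 1, with library size only and with no filter on low counts, 1 gene was called down with LPS and 1 was called up in the dual treatment against LPS. The list median was 0.14 with LPS and 0.27 in the dual treatment against control. *Ptafr*, the receptor for platelet-activating factor, was at 7.19, 7.74 and 7.91 CPM in control, 40.2, 42.2 and 33.7 CPM in LPS and 20.5 and 23.6 CPM in dual-treated lungs. *Procr*, the endothelial receptor for protein C, was at 6.75, 5.91 and 6.02 CPM in control, 22.1, 23.97 and 21.04 CPM in LPS and 24.2 and 15.7 CPM in dual-treated lungs. *Bdkrb1*, the inducible bradykinin receptor, was at 2.06, 1.69 and 2.57 CPM in control, 4.15, 6.35 and 5.81 CPM in LPS and 5.94 and 3.82 CPM in dual-treated lungs. All 3 were above control in every LPS and dual-treated mouse, unlike *Tek*, *Kdr* or *Angpt1*. The log2FC with LPS was 2.34 ± 0.13 (SE, adjusted p = 9.53e-07) for *Ptafr*, 1.84 ± 0.18 (SE, adjusted p = 1.52e-05) for *Procr* and 1.37 ± 0.28 (SE, adjusted p = 0.00189) for *Bdkrb1*. In the dual treatment against control it was 1.53 ± 0.14 (SE, adjusted p = 0.000164), 1.68 ± 0.19 (SE, adjusted p = 0.000523) and 1.21 ± 0.30 (SE, adjusted p = 0.0254). The call of *Bdkrb1* with LPS was lost without LPS mice 6 and 7 (0.98), and that against control in the dual treatment without dual-treated mouse 2 (0.83) or control mouse 1 (1.19), 2 (1.07) or 4 (1.35).

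The glycocalyx is the sugar coat on the vessel side of the endothelium. Of 8 of its genes, 2 fell and 1 rose with LPS, with a list median of -0.031, 1 rose in the dual treatment against control, and 2 rose and 1 fell in the dual treatment against LPS. *Hyal2*, a membrane-anchored hyaluronidase, was at 122, 140.1 and 154 CPM in control, 11.1, 14.8 and 14.3 CPM in LPS and 186 and 166 CPM in dual-treated lungs. It was low in LPS lungs alone, with a log2FC of -3.37 ± 0.14 (SE, adjusted p = 4.09e-07) with LPS and 3.72 ± 0.15 (SE, adjusted p = 7.68e-07) in the dual treatment against LPS. *Sdc4*, a heparan sulfate proteoglycan, was at 249.99, 194 and 205 CPM in control, 1189.9, 788 and 671 CPM in LPS and 319 and 202 CPM in dual-treated lungs and rose with LPS, with a log2FC of 2.03 ± 0.24 (SE, adjusted p = 6.37e-05). *Podxl*, a sialomucin of the luminal membrane, was at 401, 449 and 439 CPM in control, 211, 123 and 136 CPM in LPS and 376 and 591 CPM in dual-treated lungs and fell, with a log2FC of -1.45 ± 0.22 (SE, adjusted p = 0.000330). *Hpse*, heparanase, which cleaves heparan sulfate, was at 6.61, 4.74 and 9.70 CPM in control, 7.18, 7.80 and 6.87 CPM in LPS and 10.7 and 18.3 CPM in dual-treated lungs and rose in the dual treatment against control, with a log2FC of 1.05 ± 0.31 (SE, adjusted p = 0.0454). That call was lost without dual-treated mouse 5 (0.58), control mouse 1 (1.004), control mouse 2 (0.83) or LPS mouse 6 (1.05), without LPS mice 6 and 7 (1.05) and in a fit of the 2 compared groups only (1.06). Against LPS its log2FC of 0.99 became a call with library size only (1.32), with either other filter on low counts, without LPS mouse 6 (1.04) and without dual-treated mouse 2 (1.303).

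**Figure D3:**
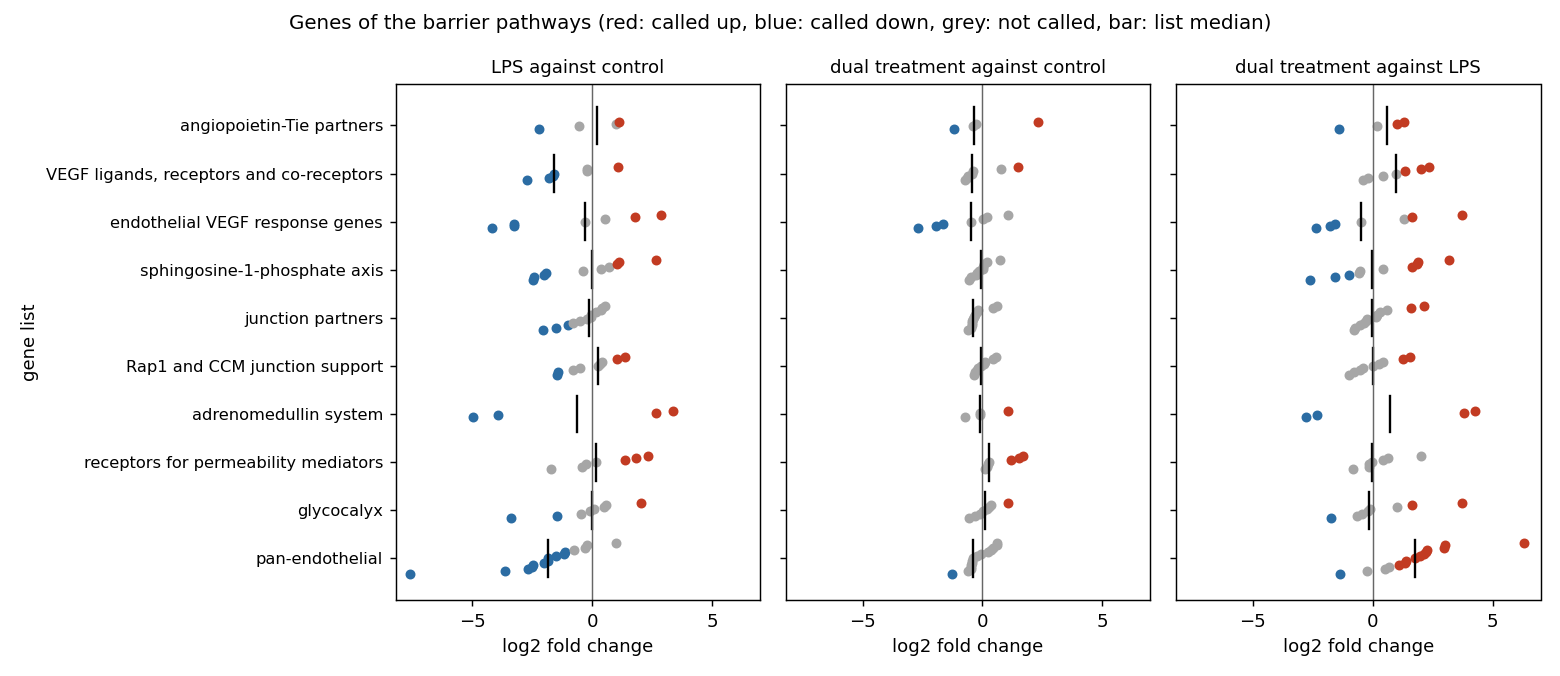
Log2FC (horizontal axis) of every tested gene of the pathway lists and of the pan-endothelial markers in the 3 comparisons, 1 point per gene and a bar at each list median. The pan-endothelial median is -1.84 with LPS and -0.38 in the dual treatment against control.

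*Tek*, *Tie1* and *Kdr* fell together with LPS, so the 250 bases before the start of the transcript tagged as canonical for each of these 3 receptor genes were read from GRCm39 and searched on both strands for 4 short motifs. These were CAGGAA, a core bound by ETS factors such as Erg, GTAAACA, bound by forkhead factors such as Foxo1, ACAAT, part of the element bound by SOX factors such as Sox18, and ACGTG, the core of the element bound by hypoxia-inducible factors. No motif contains another. Over 21627 protein-coding genes the share of such windows with the motif was 24.4% for CAGGAA, 2.72% for GTAAACA, 26.9% for ACAAT and 17.0% for ACGTG. *Tek* held 1 CAGGAA, *Kdr* held none of the 4 motifs, and the window of *Tie1* held the last 3, with ACGTG on each strand of the palindrome CACGTG. The match is a description of these letters and not of a bound site. The windows are chr4:94627041-94627290 (+) for *Tek*, chr4:118347259-118347508 (-) for *Tie1* and chr5:76139119-76139368 (-) for *Kdr*. The canonical transcripts of *Tie1* and *Kdr* start at 118347258 and 76139118, inside the bounds of these genes given above, because other annotated transcripts start further upstream. The whole *Kdr* window therefore lies within those bounds, and the bases before the outermost *Kdr* start were not searched. The sequences run 5′ to 3′ along the strand of the gene, with the motifs of either strand in capitals.
Tek: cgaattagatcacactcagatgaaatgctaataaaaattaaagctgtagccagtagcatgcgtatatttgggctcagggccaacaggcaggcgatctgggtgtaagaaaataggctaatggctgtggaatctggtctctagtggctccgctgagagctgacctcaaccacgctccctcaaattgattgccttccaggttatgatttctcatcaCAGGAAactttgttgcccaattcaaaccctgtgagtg
Tie1: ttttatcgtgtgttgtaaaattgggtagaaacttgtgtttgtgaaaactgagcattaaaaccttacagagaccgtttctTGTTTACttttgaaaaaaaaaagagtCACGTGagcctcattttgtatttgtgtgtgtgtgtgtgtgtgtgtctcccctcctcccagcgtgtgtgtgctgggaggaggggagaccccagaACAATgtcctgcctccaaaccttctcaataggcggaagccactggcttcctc
Kdr: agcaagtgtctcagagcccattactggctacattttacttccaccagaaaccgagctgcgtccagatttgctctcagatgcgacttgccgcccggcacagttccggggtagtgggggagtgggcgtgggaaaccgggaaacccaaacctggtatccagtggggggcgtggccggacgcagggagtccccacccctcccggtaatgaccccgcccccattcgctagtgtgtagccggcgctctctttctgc

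The tested genes whose log2 CPM was most like that of each vascular barrier gene were ranked by Pearson's r over the 8 mice, which fall into separate groups, so that r includes the differences between the groups and is given as a description without a p-value. For *Angpt1* they were *Hsf4*, *Dpp4* and *Kank4* (r from 0.996 to 0.998), for *Angpt2* *Thap12*, *mt-Nd4* and *Slc1a1* (r from 0.984 to 0.993) and for *Vegfa* *Ptgfrn*, *Rgs6* and *Enpep* (r from 0.994 to 0.995). For *Tek* they were *Tmem44*, *Slc24a4* and *Adrb1* (r from 0.997 to 0.998), for *Tie1* *Numb*, *Gm28557* and *Ptprs* (r = 0.999 for each) and for *Kdr* *Cracr2b*, *Myzap* and *Ago1* (r from 0.998 to 0.999). For *Flt1* they were *Rprml*, *Catspere2* and *Mmp17* (r from 0.961 to 0.975) and for *S1pr1* *Rapgef5*, *Mtfmt* and *Ctla4* (r from 0.988 to 0.994). For *Cdh5* they were *Maea*, *Tiprl* and *Arl4d* (r from 0.938 to 0.955) and for *Cldn5* *Lactb*, *Dtwd1* and *Rpgrip1* (r from 0.889 to 0.911), the lowest values of r among the 10.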

How the data were processed

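The authors filtered the reads with FastQC 0.11.9 and Trim Galore, aligned them to GRCm39 with HISAT2 2.2.1, counted them per gene with featureCounts 2.0.1 (versions from the submitters' processing notes) and deposited raw counts, without normalization, for each of 8 mice. The annotation release, strand setting and treatment of reads that map to several places are not given in the sources used here. GENCODE M39 gave symbols and positions for 54749 of 55416 identifiers, and the 667 others held 0.0533% of counts.

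Here edgeR 4.0.16 (R 4.3.3) filtered genes by group with filterByExpr, scaled with TMM and fitted 1 group factor over the 8 libraries, leaving 5 residual degrees of freedom for its quasi-likelihood test. Standard errors came from the log2FC and its F statistic. The authors used DESeq2 with a fold change over 2 and a p-value under 0.05. Here DESeq2 (version 1.42.0) with adjusted p-values was an alternative, and so were edgeR's unadjusted p-values. Log2 CPM had a prior count of 2. Promoter windows were read from GRCm39.

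The procedure was tested on simulated data.

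All 10 vascular barrier genes are named. From each pathway list at most 4 genes are named, those with the largest change with LPS among called genes with a mean of at least 1 CPM, plus genes called in the dual treatment against control. The 3 most alike genes are named for each vascular barrier gene. Marker genes named singly, the motifs and the sequences shown were chosen after values were seen. The members and lists were chosen with earlier results of these data known. Of the listed symbols, *Lor* matched no identifier. The alternatives were other scalings, DESeq2, other filters and thresholds, the 2 compared groups only, leaving out each mouse, and leaving out LPS mice 6 and 7.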

Additional observations from a re-analysis of the deposited data

How the results depend on the processing

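No paired analysis was possible because the groups hold separate animals, and a mouse number that recurs between groups is only a sample label. Of 510 single-gene values under 17 alternatives, 476 kept direction and call. Alternatives that changed only the threshold kept the main log2FC, so direction could not change in them. Some others left out a mouse of the group not compared. Where values changed, the cause was not tested.

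LPS against control: 0 of the 10 genes were called up with library size only, against 13.3% of all genes. Without the fold criterion 2 of 10 were called up, against 32.6% of all genes. Leaving out 1 mouse gave 0 to 1 called up, against at least 16.8% of all genes. *S1pr1* was 0.77 with library size only and 0.98 to 1.15 leaving out 1 mouse. *Cdh5* was -0.13 with library size only and -0.021 to 0.28 leaving out 1 mouse. *Cldn5* was -0.31 with library size only, 0.015 with RLE and 0.015 with DESeq2. It was 0.053 without LPS mice 6 and 7 and -0.071 to 0.026 leaving out 1 mouse. Dual treatment against control: 3 genes were called down without the fold criterion and 0 to 4 leaving out 1 mouse, which also gave *Tie1* -0.60 to 0.14, *S1pr1* -0.28 to 0.64, *Cldn5* -0.12 to 0.15 and the log2 *Angpt2* to *Angpt1* ratio -0.46 to 0.32. Dual treatment against LPS: 2 of the 10 genes were called down without the fold criterion, against 27.4% of all genes. *Flt1* was -0.0083 with RLE, -0.0083 with DESeq2, -0.059 without LPS mice 6 and 7 and -0.39 to 0.34 leaving out 1 mouse. *Cldn5* was -0.0034 without LPS mice 6 and 7 and -0.089 to 0.18 leaving out 1 mouse.

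The dual treatment has 2 mice, so leaving out either leaves 1, which is assumed to vary like the other groups. With a lowest count of 173 for the 10 genes, depth did not limit their detection. LPS mice 6 and 7 carry squamous and muscle transcripts, whose part was not tested. Counts per gene separate neither overlapping antisense genes nor splice forms, and bulk lung does not separate cell number from RNA per cell.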

Other observations

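Of the remaining marker lists, 5 lymphatic endothelial markers had 1 gene up and 1 down with LPS (2 up without control mouse 1, LPS mouse 7 or LPS mice 6 and 7, the second being *Pdpn*, which is also counted among the alveolar type 1 markers), and their sum, led by *Lyve1*, was 524, 451 and 383 CPM in control, 2351, 2057 and 1709 CPM in LPS and 636 and 380.5 CPM in dual-treated lungs. *Lyve1*, a hyaluronan receptor of lymphatic endothelium and of some macrophages, was at 334, 273 and 209 CPM in control, 2056, 1787 and 1504 CPM in LPS and 513 and 248 CPM in dual-treated lungs and rose with LPS, with a log2FC of 2.71 ± 0.28 (SE, adjusted p = 2.62e-05), while *Prox1*, the transcription factor that defines lymphatic endothelium, had a log2FC of 0.73 ± 0.24 (SE, adjusted p = 0.0205) and was not called. *Ccl21a* fell with LPS, with a log2FC of -1.73 ± 0.32 (SE, adjusted p = 0.00109), so the markers of this list did not move together.

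Of 6 fibroblast markers, 2 fell and 1 rose with LPS, with a sum, led by *Pdgfra* in the mean of each group, of 928, 970.0 and 888 CPM in control, 721, 916 and 838 CPM in LPS and 999 and 737 CPM in dual-treated lungs. Of 7 monocyte and macrophage markers, 1 rose and 1 fell with LPS (2 rose without control mouse 1) and 4 rose in the dual treatment against control, with a sum, led by *Lyz2*, of 6166, 5671 and 7562 CPM in control, 5744, 4732 and 3378 CPM in LPS and 6332 and 8579 CPM in dual-treated lungs. Of 4 tested platelet markers of 5, 1 rose with LPS and 1 in the dual treatment against control. The call with LPS was lost with library size only and without control mouse 1 or 2 or LPS mouse 1 (2 rose without LPS mice 6 and 7), and the other without any control mouse or either dual-treated mouse. With *Itga2b* as the most abundant in control and LPS lungs and *Pf4* in dual-treated lungs, their sum was 86.1, 58.3 and 126 CPM in control, 223, 156 and 124 CPM in LPS and 73.7 and 134 CPM in dual-treated lungs, and *Gp1bb* had no count in any library.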
